A study of Mus musculus with 768 samples.

Results

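Mouse embryoid body cells sampled 12 h after doxycycline were compared with uninduced cells of the same line (0 h). Both groups carry the doxycycline-inducible cassette iNgn2.Isl1.Lhx3.V5 in the line Ainv15, which encodes the transcription factors Neurog2 (Ngn2), Isl1 and Lhx3. The 12 h cells had received doxycycline at 3 µg/ml, and the 0 h cells had not. Embryoid bodies were formed 2 days before that point from stem cells grown with leukemia inhibitory factor and 2 inhibitors, CHIR and the MEK inhibitor PD0325901, neither of which is listed for the embryoid body medium. Viable single cells were sorted into plates of 96 wells per time point and profiled by SMART-Seq2, a method that reads whole transcripts of 1 cell. Cells were chosen by column label and depth: those with at least 2000 genes above 0 were kept, which left 52 of 96 cells at 12 h and 37 of 96 at 0 h, 89 of the 368 cells kept over all 8 time points. Each time point is 1 sample, because the labels name no separate culture within it. Cells of 1 sample are not replicates, so no test was made, every SD is between cells, and differences are given by size only. There is no uninduced sample at 12 h, so the effects of doxycycline and of 12 h of further culture cannot be told apart.

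Neurog2 is a basic helix-loop-helix factor that starts neurogenesis and acts through the Notch ligands and downstream factors such as Ebf proteins. Isl1 and Lhx3 are LIM-homeodomain factors that together specify spinal motor neurons, whose transmitter is acetylcholine. Expressed jointly in pluripotent cells, these factors are known to drive motor neuron formation without the usual sequence of spinal progenitor stages. Pluripotent cells at this stage are held by a network around Pou5f1 and Sox2 and by FGF and Nodal signals.

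Depth differed between the groups. The 12 h cells had 2181 to 5205 genes above 0, with a median of 4269, and the 0 h cells 3031 to 7044, with a median of 5304. Shares of cells with a gene above 0 were thus read at lower depth at 12 h. Many values of 0 may be missed transcripts. Hprt, from the list of reference genes, was above 0 in 15.4% of 12 h cells and 10.8% of 0 h cells. At 6, 18, 24 and 30 h it was above 0 in 59.6% to 67.9% of cells. Sod1 took 5.37% of all TPM at 12 h and 6.53% at 0 h, against 0.0518% to 0.0807% at 6, 18, 24 and 30 h, and 1.96% and 2.01% at 36 and 48 h. The labels speak of 2 library batches and do not say which cells belong to which. Levels are TPM, the share of a cell's transcripts, scaled by transcript length. Shares of cells carry exact 95% binomial intervals that cover counting of cells only.

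A gene was described when its mean reached 10 TPM and at least 25% of cells were above 0 in the higher group, which held for 5848 of 27723 genes. The value just outside this limit was 10.0 TPM for Mycl1 (0.33 log2 units higher at 12 h), and the value just inside was 10.0 TPM for Mtfmt (0.42 log2 units lower, a log2 ratio of -0.42). The log2 ratio throughout is that of mean TPM plus 1, at 12 h over 0 h. On this scale 992 genes (17%) were at least 2-fold higher at 12 h and 763 (13%) at least 2-fold lower, with a median of 0.04. These shares are the background for every count below. A gene could be described through its higher group alone, so counts over described genes are descriptions and not evidence. They were smaller at high levels: of the 2322 genes with a mean of 5 to 30 TPM over both groups, 22.3% were 2-fold higher and 18.6% 2-fold lower, whereas of the 439 genes above 300 TPM 3.87% were higher and 4.78% lower. When the mean of log2(TPM + 1) over cells replaced the log of the mean, 280 genes were 2-fold higher and 1457 lower, and the median of all genes moved to -0.45. Among cells with 3000 to 6000 genes, 45 at 12 h and 30 at 0 h, the counts were 1209 and 697.

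**Figure D1:**
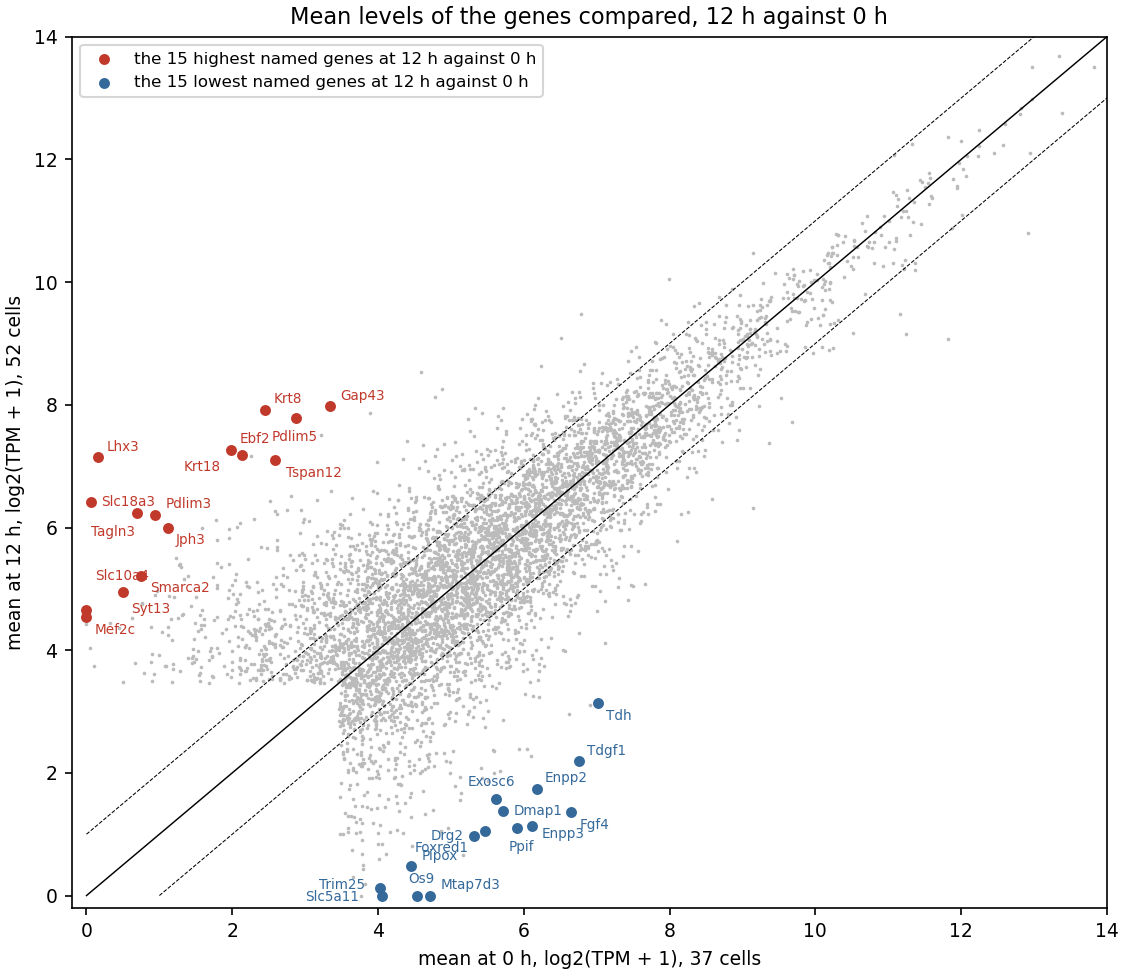
Mean level of each of the 5848 genes compared, in log2(TPM + 1), at 12 h (vertical axis, 52 cells) and 0 h (horizontal axis, 37 cells). The solid line marks equal means and the dashed lines a 2-fold difference; red and blue points are the 15 highest and 15 lowest named genes, among which Lhx3, Slc18a3 and Tagln3 stand farthest above the line and Fgf4 farthest below it.

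The cassette factors were read in part of the 12 h cells. At least 1 of Lhx3, Isl1 and Neurog2 was detected at 12 h in 32 of 52 cells (61.5%, 47.0% to 74.7%), against 3 of 37 at 0 h (8.11%, 1.70% to 21.9%). All 3 were above 0 in 8 of the 12 h cells, 2 of them in 9 and 1 in 15, while no 0 h cell held more than 1. Lhx3 ran from 0 to 886 TPM at 12 h with a median of 5.43 and was above 0 in 28 cells, against 0 to 4.41 TPM at 0 h with 1 cell above 0. It averaged 140 ± 209 TPM at 12 h, against 0.119 ± 0.725 TPM at 0 h (SD between cells), a log2 ratio of 6.98. In 27 of the 12 h cells Lhx3 exceeded the highest 0 h value. Isl1 ran from 0 to 600 TPM at 12 h with 20 cells above 0, against 0 to 113 TPM at 0 h with 2 cells above 0, and its log2 ratio was 3.97. Neurog2 was above 0 in 9 cells at 12 h, up to 115 TPM with a mean of 5.65 TPM, while no 0 h cell held it (0 of 37, so a share of up to 8.11% is possible). It did not reach the limit on mean and share. The table gives 1 value per gene, so cassette transcripts and those of the cells' own genes cannot be told apart. The 32 cells with a factor had a median of 4465 genes and the 20 without one had 3827, so depth moved with detection and its part was not tested.

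The genes farthest above their 0 h level after Lhx3 had varied functions. Slc18a3 encodes the vesicular acetylcholine transporter and lies inside an intron of Chat, so that unspliced Chat transcripts could be counted to it. It ran from 0 to 843 TPM at 12 h with a mean of 84.5 ± 188 TPM and was above 0 in 16 cells (30.8%, 18.7% to 45.1%). At 0 h only 1 cell was above 0, at 1.56 TPM, so all 16 of the 12 h cells exceeded it, and the log2 ratio was 6.36. Slc10a4, a vesicular transporter of cholinergic and monoaminergic neurons, was above 0 in 13 cells at 12 h, with a mean of 24.3 TPM and a highest value of 443 TPM, and every 0 h cell was listed at 0. Ebf2, a factor that acts downstream of proneural proteins in postmitotic neurons, averaged 153 ± 312 TPM in 12 h cells and 2.95 ± 16.2 TPM in 0 h cells, with 18 and 3 cells above 0 and a log2 ratio of 5.29. In 13 of the 12 h cells it exceeded the highest 0 h value of 98.3 TPM. Mef2c, a MADS-box factor of muscle and neurons, was above 0 in 16 cells at 12 h, with a mean of 22.2 TPM, and every 0 h cell was listed at 0. Tagln3, an actin-binding protein of neurons, averaged 74.5 TPM at 12 h with 13 cells above 0, against 0.621 TPM at 0 h with 5 cells, a log2 ratio of 5.54. Jph3, a junctophilin of brain that ties the endoplasmic reticulum to the plasma membrane, averaged 62.9 TPM at 12 h and 1.16 TPM at 0 h. Syt13, an atypical synaptotagmin, averaged 29.9 TPM at 12 h and 0.415 TPM at 0 h. Both were above 0 in 16 of the 12 h cells. Others of these 15 genes were Pdlim3 (5.26), Pdlim5 (4.90), Tspan12 (4.50) and the BAF ATPase Smarca2 (4.46), with log2 ratios in parentheses. Pdlim5 rested largely on 1 cell at 9303 TPM, and without the highest cell of each group its log2 ratio was 2.93.

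With all 96 wells of each group, shallow ones included, the log2 ratio was -0.81 for Tagln3 and -0.037 for Syt13, a turn of direction. It was smaller but still above 0 for Lhx3, at 3.18 against 6.98 as reported, for Ebf2, at 1.30 against 5.29, and for Slc18a3, at 5.52 against 6.36. Gap43 and Ncam1, described further on, were at 2.97 and 2.08 with all 96 wells, against 4.63 and 3.95 as reported. Among cells with 3000 to 6000 genes the log2 ratios were 7.04 for Lhx3, 6.62 for Slc18a3, 5.37 for Ebf2 and 5.76 for Tagln3.

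Sequences just upstream of these genes were searched for letters that proteins of the factors' families are known to bind. The search covered the 250 bases before each RefSeq start (GRCm38.p6), for TAATTA, which homeodomain proteins bind and which reads the same on both strands, and for CAGATG or its other strand CATCTG, an E-box form bound by Neurog and Neurod proteins. Of the 12 genes among the 15 highest with a window in the table, 3 held TAATTA and 2 held CAGATG or CATCTG. Among all 27025 genes with windows, 5.65% held TAATTA and 16.3% the E-box form. Of 13 matched genes among the 15 lowest, 1 held each. Some genes have several windows, 3 for Mef2c and 2 for Lhx3. A match is a description of letters and not a binding site. The windows of 3 genes are shown, taken from those of the 15 highest genes whose windows held a motif. Pdlim5, which also held TAATTA, is not shown. Lhx3 is a cassette gene, and Tagln3 and Mef2c were at or near 0 in uninduced cells. So were genes whose window held neither motif, such as Slc18a3 and Slc10a4. Capitals mark the motif, which starts 215 (Lhx3), 193 (Tagln3) and 102 (Mef2c) bases before the start, and each run is read 5′ to 3′ on the gene's strand. Lhx3 is at chr2:26206576-26206825 on the minus strand, Tagln3 at chr16:45724532-45724781 on the minus strand and Mef2c at chr13:83523406-83523655 on the plus strand.
Lhx3: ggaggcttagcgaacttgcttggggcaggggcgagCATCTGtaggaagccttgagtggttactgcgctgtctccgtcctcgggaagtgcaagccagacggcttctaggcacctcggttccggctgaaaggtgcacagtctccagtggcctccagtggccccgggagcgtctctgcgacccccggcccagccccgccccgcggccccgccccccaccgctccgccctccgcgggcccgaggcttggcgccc
Tagln3: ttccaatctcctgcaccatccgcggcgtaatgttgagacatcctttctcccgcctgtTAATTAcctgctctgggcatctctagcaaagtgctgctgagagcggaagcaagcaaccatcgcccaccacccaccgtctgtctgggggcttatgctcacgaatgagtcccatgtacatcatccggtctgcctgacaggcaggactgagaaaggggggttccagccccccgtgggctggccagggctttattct
Mef2c: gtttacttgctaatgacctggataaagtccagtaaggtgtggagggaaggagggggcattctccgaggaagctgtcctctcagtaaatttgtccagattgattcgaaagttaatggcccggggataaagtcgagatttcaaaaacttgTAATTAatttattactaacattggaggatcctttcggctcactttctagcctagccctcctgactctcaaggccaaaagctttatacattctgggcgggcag

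**Figure D2:**
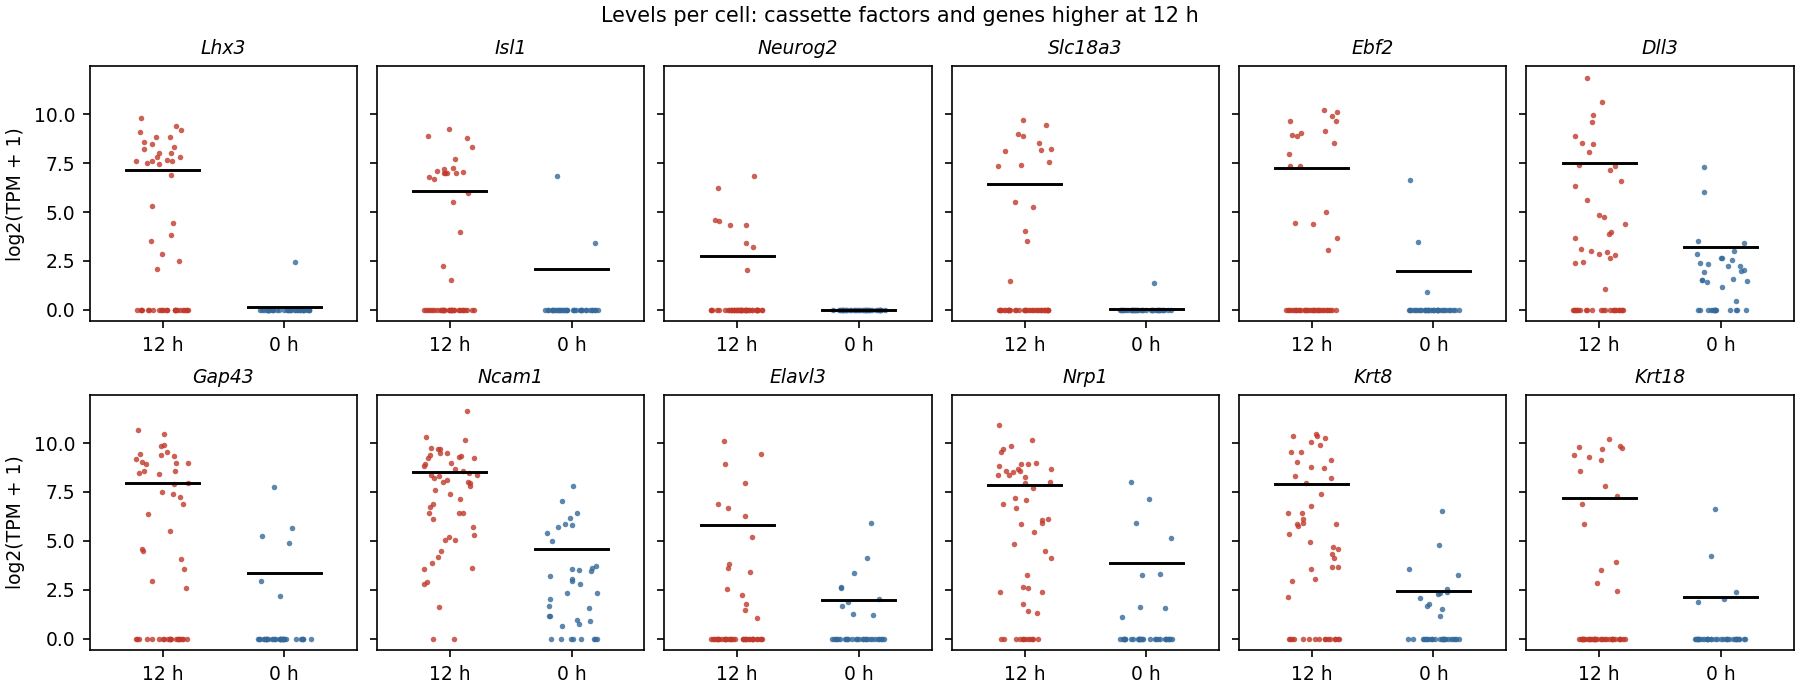
Level in each kept cell, in log2(TPM + 1), at 12 h (red, 52 cells, left) and 0 h (blue, 37 cells, right) for the 3 cassette factors and 9 genes higher at 12 h. Each point is 1 cell and the bar is the log of the mean TPM; most panels show 12 h cells at 0 beside cells far above the 0 h range, and Ncam1 is above 0 in nearly every 12 h cell.

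The Notch pathway and genes of the proneural programme were next. Of 8 described Notch pathway genes (23 in the list), 4 were at least 2-fold higher at 12 h and none 2-fold lower, with a median log2 ratio of 0.90. Dll3, a Notch ligand that Neurog proteins are known to induce, ran from 0 to 3738 TPM at 12 h with a mean of 181 ± 578 TPM, against 0 to 160 TPM at 0 h with a mean of 8.33 ± 27.6 TPM. It was above 0 in 29 cells at 12 h and 23 cells at 0 h, a smaller share at 12 h (55.8%) than at 0 h (62.2%), and 10 of the 12 h cells exceeded the highest 0 h value. The ligand Dll1 had a log2 ratio of 1.80, the Notch effector Hes1 1.29 and the receptor Notch2 1.14, or 0.92 without the highest cell of each group. Of 8 described proneural targets (27 in the list), 3 were 2-fold higher and none lower, with a median of 0.75: Hes6, an inhibitor of Hes1, at 1.85, the co-repressor Cbfa2t2 at 1.61 and the neuronal splicing factor Srrm4 at 1.22. Btg2, an antiproliferative gene of neurogenic divisions, was at 0.90. Neurod1, a direct proneural target named after its values were seen, averaged 41.9 TPM at 12 h and 51.3 TPM at 0 h, a log2 ratio of -0.29. With the mean of log2(TPM + 1) the median of the proneural list was 0.040 and Srrm4 was at -0.11. With all 96 wells Srrm4 was at -0.13.

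Most described genes of the neuronal cytoskeleton and surface were higher at 12 h. Of 18 described pan-neuronal genes (36 in the list), 12 were at least 2-fold higher and 1 lower, and the median log2 ratio was 1.39, beside 17% and 13% of all genes described. The sum of the list ran from 138 to 13051 TPM per cell at 12 h with a median of 3285 TPM, against 236 to 2626 TPM at 0 h with a median of 1359 TPM. The groups overlapped in this sum. Ncam1, a neural cell adhesion molecule, ran from 0 to 3246 TPM at 12 h with a median of 250 TPM, against 0 to 226 TPM at 0 h with a median of 4.06 TPM. It was above 0 in 50 of 52 cells at 12 h and 29 of 37 at 0 h, 28 of the 12 h cells exceeded the highest 0 h value, and the log2 ratio was 3.95. Gap43, a growth cone protein, averaged 251 ± 376 TPM in 12 h cells and 9.16 ± 36.3 TPM in 0 h cells, with 31 and 6 cells above 0, a log2 ratio of 4.63. The neuronal RNA-binding protein Elavl3 was at 3.87 with 16 cells at 12 h and 10 at 0 h. Dpysl2 (CRMP2), which regulates tubulin in growth cones, averaged 543 TPM at 12 h and 90.2 TPM at 0 h, with 24 of the 12 h cells above the highest 0 h cell. Named after their values were seen, Mtap2 had a log2 ratio of 2.40, Rtn1 2.18, Mtap1b 1.85, Tubb3 1.55, Uchl1 1.46 and Tuba1a 1.32. The tubulin Tuba1a, which short reads may not tell from its near-identical relatives, averaged 1416 TPM at 12 h and 567 TPM at 0 h. Stmn1, which dividing cells also express, was at 0.32. The 1 gene lower was Basp1, a membrane protein of growth cones that embryonic cells also express, at -1.20, and with all 96 wells it was at 2.66.

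Surface receptors of axon guidance and vesicle genes were higher in smaller number. Of 9 described guidance genes (34 in the list), 4 were 2-fold higher and 2 lower, with a median of 0.75. Nrp1, a semaphorin and VEGF receptor, ran from 0 to 1969 TPM at 12 h with 40 cells above 0, against 0 to 255 TPM at 0 h with 9 cells, a log2 ratio of 3.97. The ephrin Efna5 was at 2.62, the Slit receptor Robo2 at 2.29 and the ephrin receptor Epha4 at 1.38. The lower ones, Ephb2 at -1.21 and Unc5b at -1.09, were named after their values were seen, and Ephb2 was at -0.59 without the highest cell of each group. Of 5 described synaptic vesicle genes (21 in the list), 3 were 2-fold higher: synaptophysin (Syp) at 3.26, Cplx2 at 1.37 and Snap25 at 1.16. Syp was above 0 in 16 of 52 cells at 12 h and 12 of 37 at 0 h. Snap25 was at -0.72 with all 96 wells.

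Motor neuron identity was represented by few genes. Of 21 motor neuron genes in the table only 4 were described, 3 of them 2-fold higher and none lower. Besides Slc18a3 these were Lmo4, a LIM-only protein that competes for the co-factor of Isl1 and Lhx3, and the neurotrophin receptor Ngfr. Lmo4 ran from 0 to 9720 TPM at 12 h with a mean of 1058 ± 1478 TPM, against 0 to 1124 TPM at 0 h with a mean of 253 ± 273 TPM. In 15 of the 12 h cells it exceeded the highest 0 h value, and the log2 ratio was 2.06. Ngfr was at 1.94 with 13 cells at 12 h and 5 at 0 h, and Foxp1, which marks limb motor neurons, at -0.65. Chat, the enzyme that makes acetylcholine, was above 0 in 8 cells at 12 h with a mean of 16.6 TPM, and every 0 h cell was listed at 0. Its share was too low for it to be described. Mnx1, a factor of postmitotic motor neurons, was above 0 in 2 cells at 12 h and in no 0 h cell. Isl2, Slc5a7 and Aldh1a2 were listed at 0 in every cell of both groups, so shares of up to 5.77% (12 h) and 8.11% (0 h) are possible. Ebf1, a relative of Ebf2 named after its values were seen, averaged 90.3 TPM at 12 h with 14 cells above 0, against 5.96 TPM at 0 h with 5 cells, a log2 ratio of 3.71.

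Keratins of simple epithelium were among the genes farthest above their 0 h level, whereas other epithelial genes went both ways. Krt8 ran from 0 to 1410 TPM at 12 h with a median of 26.9 TPM and 36 cells above 0, against 0 to 92.3 TPM at 0 h with 13 cells above 0. Its log2 ratio was 5.47, and 17 of the 12 h cells exceeded the highest 0 h value. Its filament partner Krt18 averaged 145 ± 307 TPM in 12 h cells and 3.38 ± 16.2 TPM in 0 h cells, with 17 and 5 cells above 0, a log2 ratio of 5.05. Of the 17 cells with Krt18 at 12 h, 12 also held Krt8, a share near that of Krt8 in all 12 h cells (36 of 52). The protease inhibitor Spint1 was at 3.46. Grhl2, an epithelial transcription factor, averaged 10.5 TPM at 12 h and 72.5 TPM at 0 h, a log2 ratio of -2.68. Named after their values were seen, the splicing factor Esrp1 was at -2.02, E-cadherin (Cdh1) at -1.26 and Epcam at -0.21. Of the 9 described genes of this list (22 in the list), 3 were 2-fold higher and 3 lower, with a median of -0.21. Zeb2, a repressor of E-cadherin, was at 2.47. It was the 1 gene 2-fold apart of the 4 described in the mesenchymal list (10 in the list), whose median was 0.34. The others were Vim at 0.43, Sparc at 0.25 and Fn1 at -0.26. With all 96 wells Krt8 was at -0.081, Cdh1 at 0.62 and Zeb2 at -0.58, while Krt18 was at 5.11.

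**Figure D3:**
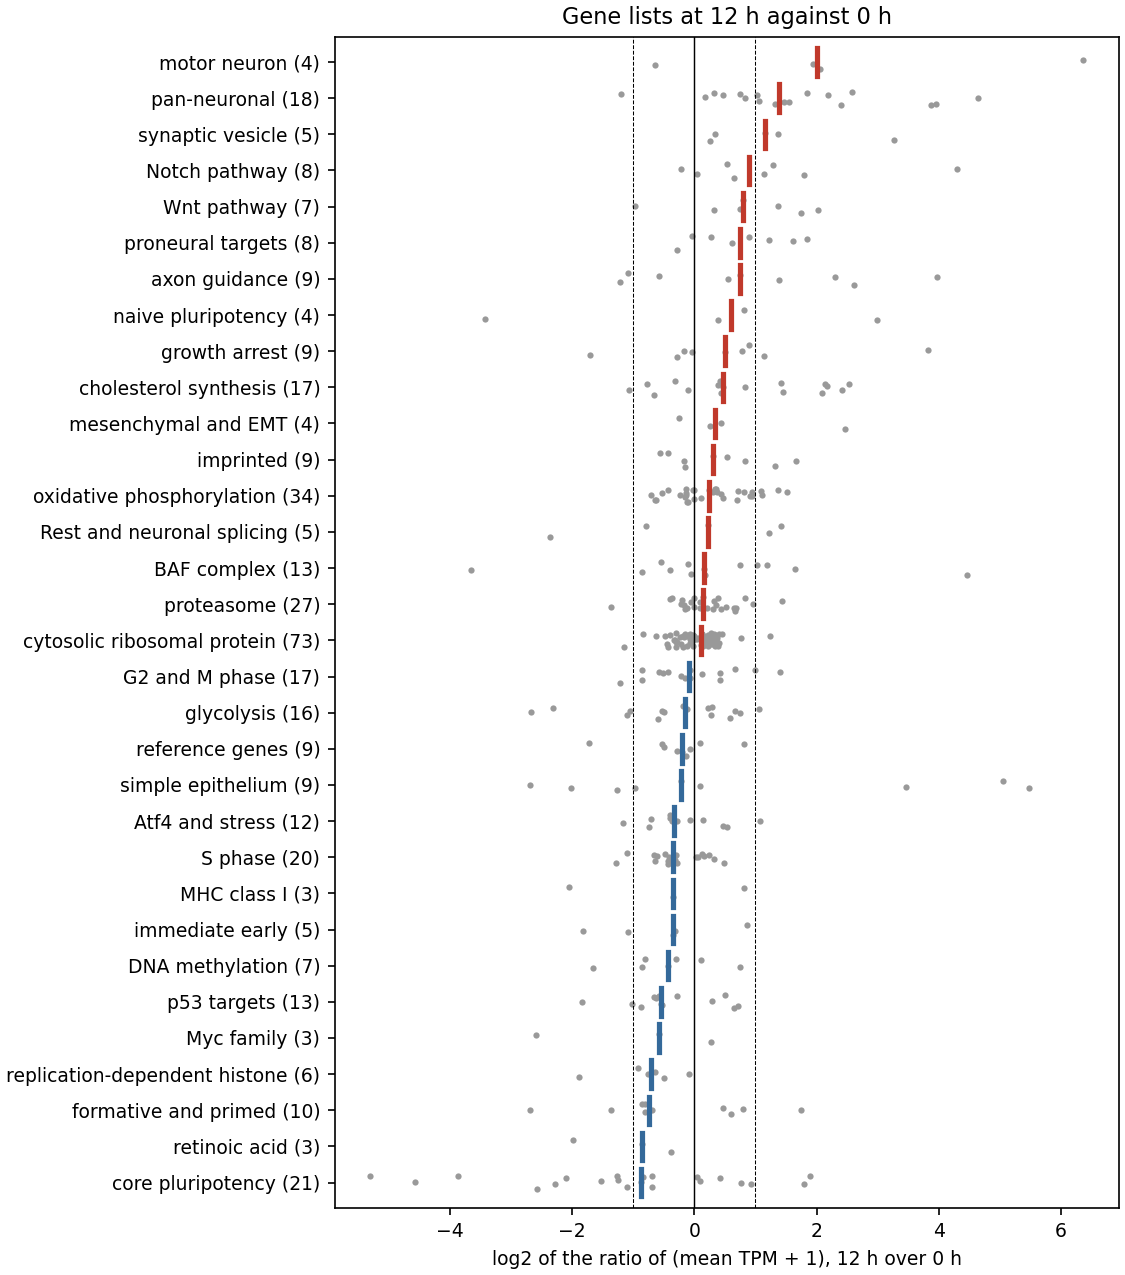
Gene lists with at least 3 described members, without small nucleolar RNAs and the 2 lists added after values were seen, ordered by the median log2 ratio of mean TPM plus 1, 12 h over 0 h (horizontal axis). Each grey point is 1 described member, the coloured bar the median (red above 0, blue below), the number in parentheses the described members, and dashed lines mark 2-fold; motor neuron (2.00) and pan-neuronal genes (1.39) lie at the top of the lists drawn and core pluripotency genes (-0.87) at the bottom.

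Genes of the pluripotent state were more often lower than higher at 12 h, with several exceptions. Of 21 described core pluripotency genes (26 in the list), 10 were at least 2-fold lower at 12 h and 2 higher, with a median log2 ratio of -0.87, beside 13% and 17% of all genes described. The sum of the list ran from 655 to 11195 TPM per cell at 12 h with a median of 3757 TPM, against 3070 to 14775 TPM at 0 h with a median of 7631 TPM. A 12 h cell held a median of 10 of the described genes of this list above 0 (4 to 16), and a 0 h cell 15 (10 to 20). Fgf4, the FGF ligand of pluripotent cells, was above 0 in 3 cells at 12 h with a highest value of 57.1 TPM, against 21 cells at 0 h with a highest value of 1146 TPM. It averaged 1.56 TPM at 12 h, against 99.4 TPM at 0 h, a log2 ratio of -5.30, and 17 of the 0 h cells exceeded the highest 12 h value. Tdgf1 (Cripto), the Nodal co-receptor, averaged 3.57 TPM at 12 h with 5 cells above 0, against 107 TPM at 0 h with 22 cells, a log2 ratio of -4.56. Tdh, the threonine dehydrogenase that feeds nucleotide synthesis in mouse stem cells, was at -3.87 and the RNA-binding protein L1td1 at -2.58.

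The factors named next from this list were chosen after their values were seen. Utf1, a chromatin protein of pluripotent cells, ran from 0 to 4938 TPM at 12 h with a median of 267 TPM and 34 of 52 cells above 0. At 0 h it ran from 202 to 5717 TPM with a median of 1993 TPM and was above 0 in all 37 cells. Its log2 ratio was -2.10, and -1.0 with all 96 wells. Sox2 averaged 6.76 TPM at 12 h with 10 cells above 0, against 36.8 TPM at 0 h with 23 cells, a log2 ratio of -2.28. Tcea3 was at -1.52, Gdf3 at -1.26 and Dppa2 at -1.10, and Gdf3 was at -0.97 without the highest cell of each group. Dppa5a averaged 1317 TPM at 12 h and 2407 TPM at 0 h, a log2 ratio of -0.87, and Dppa4 was at -0.83. Pou5f1 averaged 31.9 TPM at 12 h with 14 cells above 0, against 30.0 TPM at 0 h with 17 cells, a log2 ratio of 0.09. This ratio depended on the setting: Pou5f1 was at -2.22 with all 96 wells and -0.92 with the mean of log2(TPM + 1). Among cells with 3000 to 6000 genes Pou5f1 was at 0.68. Sall4 averaged 1043 TPM at 12 h, with 51 of 52 cells above 0, against 1008 TPM at 0 h, with 37 of 37. The RNA-binding protein Lin28a was at 0.77. Among the genes 2-fold higher was the Nodal inhibitor Lefty1 at 1.80.

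**Figure D4:**
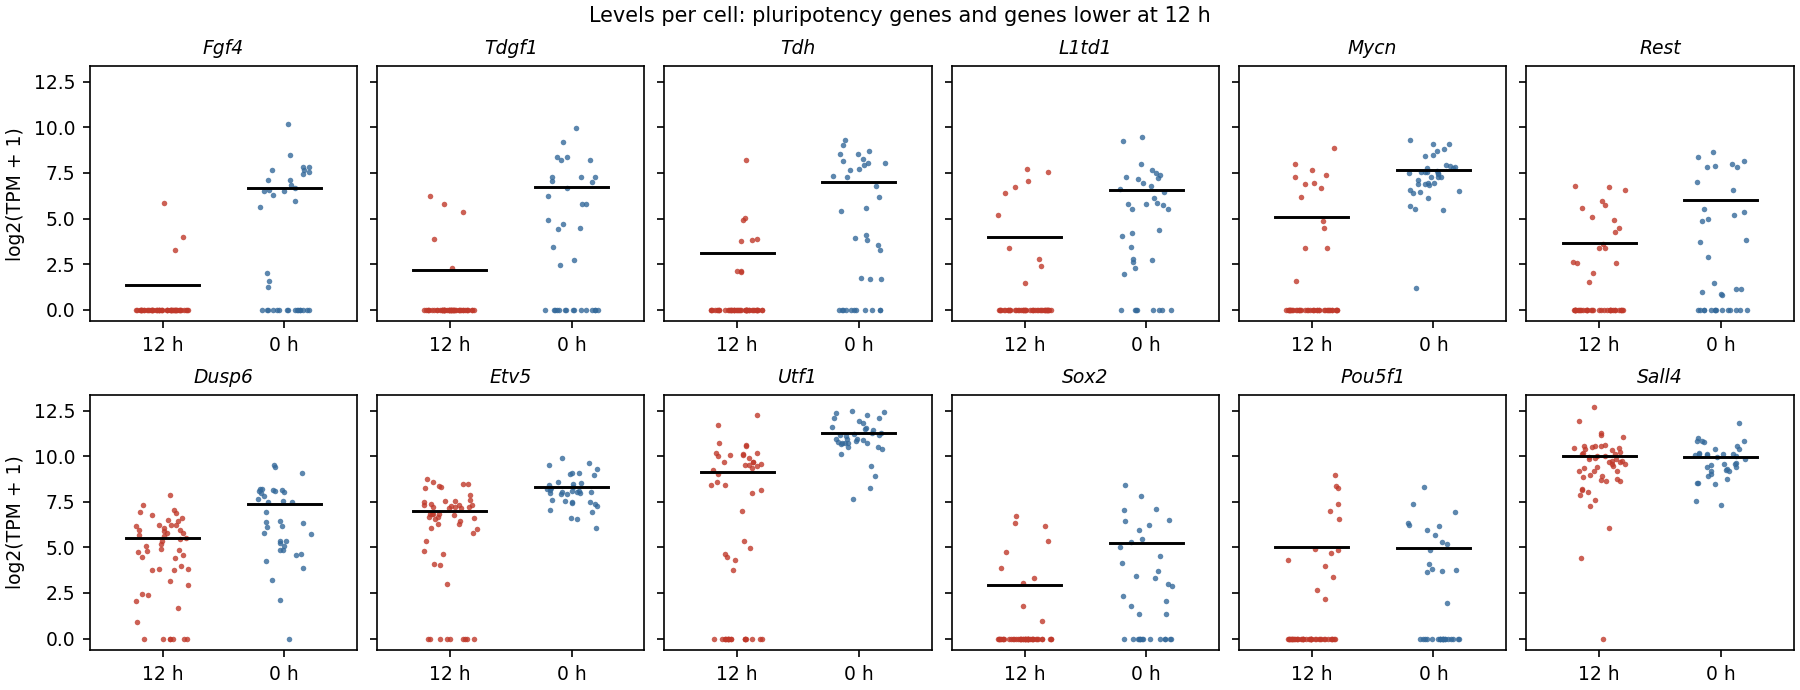
Level in each kept cell, in log2(TPM + 1), at 12 h (red, 52 cells, left) and 0 h (blue, 37 cells, right) for 8 genes lower at 12 h (Fgf4 to Etv5), 2 further pluripotency genes that were lower (Utf1 and Sox2) and 2 with like means (Pou5f1 and Sall4). Each point is 1 cell and the bar is the log of the mean TPM; Fgf4 is above 0 in 3 cells at 12 h and 21 at 0 h, and Utf1 spreads from 0 upward at 12 h while every 0 h cell is above 0.

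Genes of other pluripotency stages went both ways. Of 10 described formative and primed genes (17 in the list), 1 was 2-fold higher and 2 lower, with a median of -0.74: the Wnt effector Lef1 at 1.75, the ETS factor Etv5 at -1.36 and Grhl2 as above, with the methyltransferase Dnmt3b at -0.85. Etv5 ran from 0 to 423 TPM at 12 h and from 65.9 to 937 TPM at 0 h. Of the 16 naive genes only 4 were described, 1 of them 2-fold higher and 1 lower, with a median of 0.60. The higher one was Fbxo15 at 2.99, which was at 0.51 without the highest cell of each group and at -0.57 among cells with at least 4000 genes. Manba was at -3.42 and Zfp42 (Rex1) at 0.82. Rarg, a retinoic acid receptor, was at -1.98, and the other 2 described retinoic acid genes were also lower, by less than 2-fold. Dusp6, the phosphatase that ERK signalling induces, averaged 45.4 TPM at 12 h and 163 TPM at 0 h, a log2 ratio of -1.82, and 0.66 with all 96 wells.

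Outside the pluripotency list, the lowest genes had varied functions. Enpp2 (autotaxin), a secreted lipid enzyme, averaged 2.35 TPM at 12 h with 4 cells above 0, against 71.4 TPM at 0 h with 23 cells, a log2 ratio of -4.43. Its relative Enpp3 was above 0 in 2 cells at 12 h and 20 at 0 h and had a log2 ratio of -4.97. No 12 h cell held Trim25, Os9 or Mtap7d3 (0 of 52, so a share of up to 5.77% is possible). They are Trim25, a ubiquitin ligase of innate immunity, with 13 of 37 cells above 0 and a mean of 15.6 TPM at 0 h, Os9, a lectin of protein quality control, with 10 cells and 22.1 TPM, and Mtap7d3, a microtubule-associated protein, with 10 cells and 25.2 TPM. The mitochondrial cyclophilin Ppif was at -4.81, the oxidoreductase Foxred1 at -4.43, the GTP-binding protein Drg2 at -4.34, Dmap1, a subunit of chromatin-remodelling complexes, at -4.33 and the exosome subunit Exosc6 at -4.05. Pipox, a peroxisomal oxidase, was at -3.98 and the transporter Slc5a11 at -3.91. Each of these 2 was above 0 in 1 cell at 12 h, and with all 96 wells Pipox was at 0.25. Some 0 h means rested on pairs of wells with like profiles. Wells 13 and 21 held Os9 at 297 and 377 TPM, Trim25 at 126 and 120 TPM and Rpa2 at 567 and 544 TPM. Wells 11 and 19 held Foxred1 at 456 and 830 TPM and Foxp1 at 435 and 469 TPM. Leaving out the highest cell keeps the other well of a pair, and whether these wells are independent was not tested.

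Among regulators of growth, chromatin and splicing, single genes stood far apart. Mycn ran from 0 to 458 TPM at 12 h with a median of 0 and 14 of 52 cells above 0, against 1.30 to 625 TPM at 0 h with a median of 175 TPM and all 37 cells above 0. It averaged 32.8 TPM at 12 h, against 202 TPM at 0 h, a log2 ratio of -2.59, while Myc was at 0.27. Mycn was the 1 gene 2-fold apart of 3 described Myc family genes (11 in the list). Rest, the repressor of neuronal genes in other cells, averaged 11.9 TPM at 12 h with 18 cells above 0, against 65.1 TPM at 0 h with 23 cells, a log2 ratio of -2.36. Its list, Rest and neuronal splicing, had 5 of 14 genes described, 2 of them 2-fold higher and 1 lower, with a median of 0.22. Of 13 described BAF subunits (21 in the list), 4 were 2-fold higher and 1 lower, with a median of 0.15. Smarca2, one of the alternative ATPases, averaged 36.2 TPM at 12 h and 0.687 TPM at 0 h. Bcl7a was at 1.64, Dpf2 at 1.19 and Bcl11a at -3.65. With the mean of log2(TPM + 1) Dpf2 was at -0.094, and with all 96 wells at 0.026. The methylcytosine oxidase Tet1 was at -1.66, the 1 gene 2-fold apart of 7 described DNA methylation genes (9 in the list). Gas1, a growth arrest gene and Hedgehog co-receptor, was above 0 in 37 of 52 cells at 12 h and 5 of 37 at 0 h, with means of 35.9 TPM and 1.62 TPM, a log2 ratio of 3.82. Btg1 was at 1.14 and Gadd45a at -1.70. In the growth arrest list 9 of 18 genes were described, 2 of them 2-fold higher and 1 lower, with a median of 0.50. Ccnd1 was at 2.03.

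Most described division, ribosomal, proteasome and oxidative phosphorylation genes were less than 2-fold apart. Over all genes, those at high levels were seldom 2-fold apart (above 300 TPM, 3.87% higher and 4.78% lower). The part of level in the counts below was not tested. All 20 S phase genes were described, 2 of them 2-fold lower (Rpa2 at -1.28 and Rrm2 at -1.10) and none higher, with a median of -0.34. Of 17 described G2 and M phase genes (20 in the list), 1 was higher and 1 lower, with a median of -0.086. The 73 cytosolic ribosomal protein genes had a median of 0.10 with 1 higher and 1 lower, and the 27 proteasome genes a median of 0.14 with 1 each way. Of 34 described oxidative phosphorylation genes (35 in the list), 4 were higher and none lower, with a median of 0.25. Of 16 described glycolysis genes (23 in the list), 1 was higher and 4 lower, with a median of -0.15, beside 17% and 13% of all genes described. The lowest were the pyruvate dehydrogenase kinase Pdk1 at -2.68 and the lactate transporter Slc16a3 at -2.30. Cholesterol synthesis stood higher: of 17 described genes (23 in the list), 7 were 2-fold higher and 1 lower, with a median of 0.46. Fdps averaged 218 ± 400 TPM in 12 h cells and 36.7 ± 83.4 TPM in 0 h cells, a log2 ratio of 2.54, Sqle was at 2.42 and Pmvk at 2.17, whereas the early enzyme Hmgcs1 was at -1.07. With all 96 wells Sqle was at -0.39.

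Markers of most other cell types were near 0 in both groups. No Hox, primitive streak, interneuron, muscle or endothelial gene of the lists was described. Median sums per cell were 0 TPM in both groups for the lists of Hox, primitive streak, interneuron, sensory neuron, and muscle and endothelium genes, with highest sums of 1042 TPM at 12 h and 219 TPM at 0 h for primitive streak. The 16 neural progenitor genes summed to a median of 65.7 TPM per cell at 12 h and 10.2 TPM at 0 h, and the 12 extraembryonic endoderm genes to 1.31 TPM at 12 h and 37.9 TPM at 0 h. Most of the mean sum of the extraembryonic endoderm list at 0 h (105 TPM) came from the gene Fst, whose values are given at the end. Of 12 sensory neuron genes 1 was described, Pou4f1, with 14 cells above 0 at 12 h and 5 at 0 h and a log2 ratio of 2.60. Of 12 ventral spinal progenitor genes 1 was described and none was 2-fold apart, and Olig2, the progenitor factor of motor neurons, was listed at 0 in all cells of both groups. The part of these cells in the results above was not tested.

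Neuronal and pluripotency transcripts were found in the same 12 h cells. Of the 31 cells with Gap43 above 0 at 12 h, 18 also held Utf1, and 22 held the keratin Krt8. Both genes were common over all 12 h cells. Krt8 was above 0 in 36 of 52, and Utf1 in 18 of 28 with Lhx3 above 0 and 16 of 24 with Lhx3 at 0. The overlaps thus lie near the shares of all 12 h cells, and no association was tested. Of the 15 genes farthest above 0 h, leaving out Lhx3, a 12 h cell held a median of 5 (0 to 11) and a 0 h cell 2 (0 to 5). Of the 15 lowest, a 12 h cell held a median of 1 (0 to 4) and a 0 h cell 6 (2 to 13). The genes had been chosen by these values, so these counts describe the choice. Within the 12 h cells, the 28 with Lhx3 above 0 held a median of 6.5 of the other 14 highest genes (1 to 11) and the 24 with Lhx3 at 0 held 3.5 (0 to 9). Their median numbers of genes were 4495 and 3941, so depth moved with this count and its part was not tested. Slc18a3 was above 0 in 12 of the 28 cells and 4 of the 24, and Slc10a4 in 10 and 3. Other genes had lower means in the cells with Lhx3: Ncam1 averaged 289 TPM in the 28 and 462 TPM in the 24, Nrp1 152 and 324 TPM, Dll3 96.8 and 280 TPM, Gas1 15.8 and 59.4 TPM, Syt13 17.1 and 44.7 TPM and Smarca2 28.1 and 45.6 TPM. Among the 24, the SD between cells was 818 TPM for Dll3 and 709 TPM for Ncam1. Cells above 0, of the 28 and of the 24, did not all go with the means. They were 27 and 23 for Ncam1, 22 and 18 for Nrp1, 16 and 13 for Dll3, 19 and 18 for Gas1, 11 and 5 for Syt13 and 7 and 7 for Smarca2. These genes were chosen after their values were seen. Dppa4 was above 0 in 25 of the 28 and 11 of the 24, and the core pluripotency genes held per cell had medians of 11 (6 to 14) and 10 (4 to 16).

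Levels at the other times are set beside those at 12 h as values only, since each time is 1 sample and depth differed. In the later libraries with high Sod1, Slc18a3 averaged 93.9 TPM at 36 h and 38.3 TPM at 48 h, beside 84.5 TPM at 12 h. Gap43 averaged 742 TPM (36 h) and 662 TPM (48 h), above its 251 TPM at 12 h, and Ncam1 751 and 850 TPM, above 369 TPM. Dll3 averaged 1.41 TPM (36 h) and 11.2 TPM (48 h), below its 181 TPM at 12 h, and Hes1 3.20 TPM at 36 h and was listed at 0 at 48 h, below 241 TPM. Fgf4 was listed at 0 in all cells at 36 and 48 h. The cells kept were 44 at 36 h, with a median of 2894 genes, and 14 at 48 h, with a median of 2141. The median was 4269 at 12 h, so values of 0 at the later times may be missed transcripts.

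The interval of 18 h against 6 h shares no cells with 12 h against 0 h. There 720 of 6083 genes described (11.8%) were 2-fold higher and 448 (7.36%) 2-fold lower. Of the 15 genes highest at 12 h, 14 were also higher at 18 h than at 6 h, 8 of them 2-fold, and the exception was Mef2c at -0.07. Slc10a4 had a log2 ratio of 3.36 there, Smarca2 2.11, Tspan12 1.87 and Slc18a3 1.27. Of the 15 lowest, 12 were also lower, 5 of them 2-fold, among them Enpp2 at -2.98 and Tdh at -2.75, and Exosc6 was higher, at 3.17. Tdgf1 averaged 46.4 TPM at 18 h and 55.8 TPM at 6 h, far above its 3.57 TPM at 12 h, and this pair of intervals lies in libraries with different Sod1 levels.

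**Figure D5:**
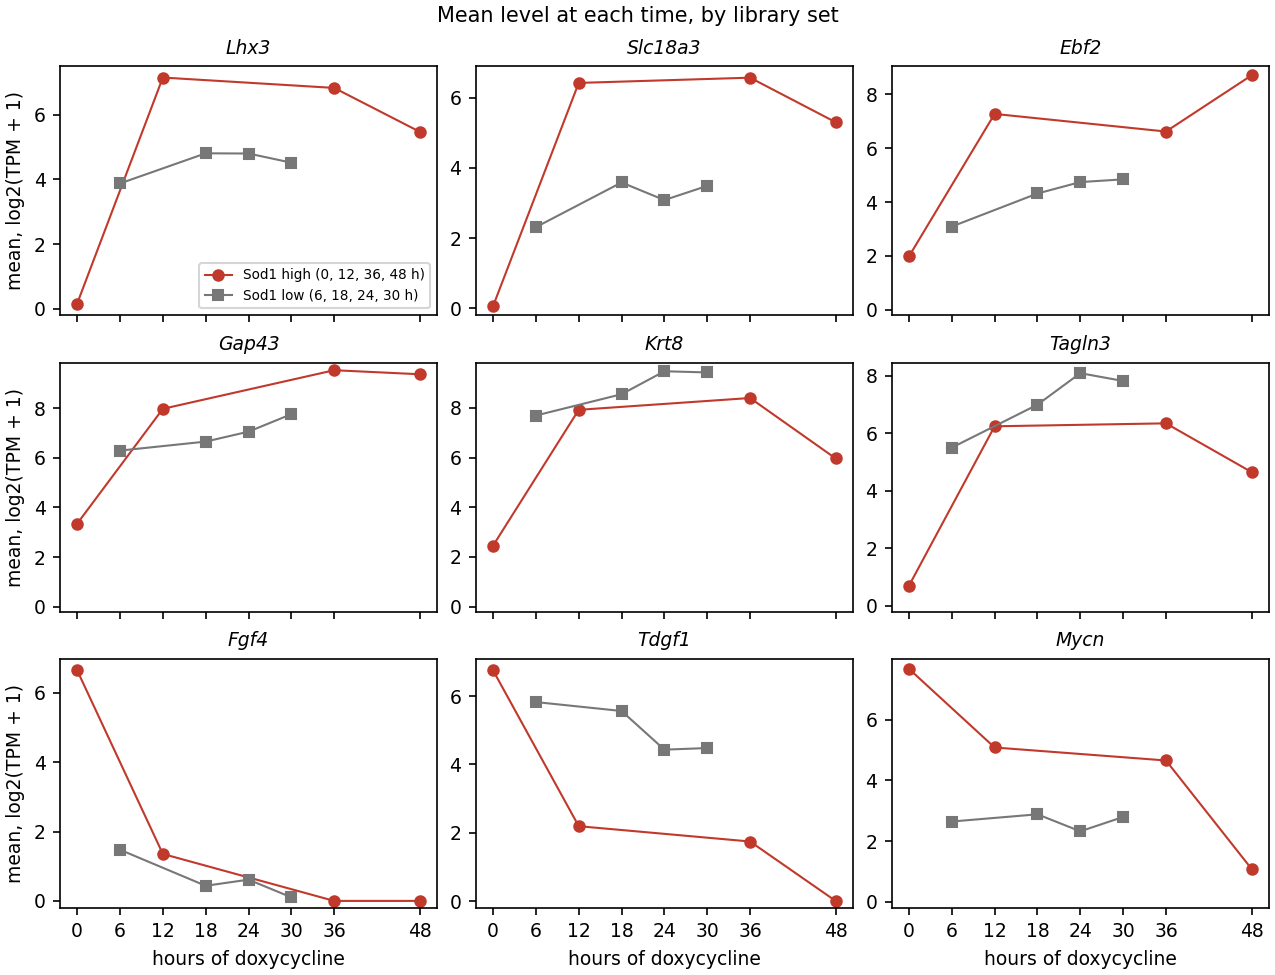
Mean level at each time of doxycycline (horizontal axis, hours), in log2(TPM + 1), for 9 genes. Red circles join the times with high Sod1 (0, 12, 36 and 48 h) and grey squares those with low Sod1 (6, 18, 24 and 30 h); for Lhx3, Slc18a3, Ebf2 and Gap43 every red point from 12 h on lies above the grey ones, and Tdgf1 and Mycn also stand at different levels in the red and the grey set.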

How the data were processed

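The authors deposited 1 table of TPM, with 27723 genes in rows and cells in columns, made from single-end reads of 50 bp at a stated average of 325000 reads per cell. Per the submitters' processing notes bcl2fastq, Picard and the mm10 genome were used. The sources used here name neither the aligner nor the annotation. TPM keeps no depth, so the number of genes above 0 stood for it, and values of low genes may rest on few reads. There are no molecular identifiers. No doublet caller was run on the sorted single cells.

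From the table, mean TPM, SD over cells and shares above 0 were computed per time, with log2 ratios of mean + 1, a scale that understates low genes. Beside a share of 0 stands the share that 3 cells would make. Genes named were the 3 cassette factors, the 15 highest and 15 lowest described genes that stayed 2-fold without the highest cell of each group (no unnamed models, small RNAs or pseudogenes), and up to 4 described members of each list by size. Others are said to be named after their values were seen, and some genes that the rule names are not reported here. Members and the 48 lists were chosen with earlier results of these data known, and 2 further lists (FGF and ERK pathway, cholinergic) after these values were seen. Of 750 list genes, 734 matched by symbol and 9 by a RefSeq synonym. Promoters come from RefSeq (GRCm38.p6). The computation was run on simulated cells, drawn for both groups gene by gene from the 0 h cells. These hold neither the depth difference between the groups nor the links between genes of a cell. The run checks the code only and says nothing on the counts above. Tools were pandas 2.3.3 and numpy 2.4.6 under Python 3.11.15, with scipy 1.17.1 for intervals and matplotlib 3.10.9 for plots. The alternatives were pseudocounts of 0.1 and 10, no filter or 50 TPM, other limits on genes per cell, other means and other scalings.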

Additional observations from a re-analysis of the deposited data

How the results depend on the processing

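No paired analysis was possible because cell numbers only name wells and no test was made. Ratios of 174 described genes above 0 in both groups, named in the text or by the rule, were taken under 12 alternatives. Genes at 0 in 1 group, such as Mef2c and Trim25, and those not described, such as Neurog2, were not included. Of 2088 ratios, 1884 kept their side of 2-fold. This count includes ratios that could not change. No filter and the limit of 50 TPM alter only which genes are described, so all 174 ratios were kept under each. Leaving out the highest cell was another alternative, and the highest and lowest genes were chosen to stay 2-fold under it. A ratio under 2-fold could change sign and still count as kept. Among genes at least 2-fold apart as reported, 24 ratios in 21 genes changed sign, and sign changes of the other genes were not counted. Of 33 lists, 346 of 382 medians moved by less than 1.5-fold. Counts of genes 2-fold higher and lower were 635 and 426 with a pseudocount of 10, 3777 and 2504 with no filter, 442 and 316 at 50 TPM, and 280 and 1457 with the mean of log2(TPM + 1). That mean put the medians of the core pluripotency list at -1.62, motor neuron 1.29, naive -0.23, pan-neuronal 0.75 and proneural 0.040. The motor neuron median was 1.39 with a pseudocount of 10 and 1.11 with no filter. The naive median (0.60 as reported) was -0.66 with no filter and -0.37 with at least 4000 genes per cell. Among the genes at least 2-fold apart as reported, the log2 ratio changed sign with all 96 wells for Basp1 (2.66), Cdh1 (0.62), Chrna3 (-0.73), Dusp6 (0.66), Krt8 (-0.081), Ndufs4 (-1.29), Ndufv2 (-0.078), Pipox (0.25), Rps18 (-0.54), Slc2a3 (-0.92), Snap25 (-0.72), Sqle (-0.39), Srrm4 (-0.13), Syt13 (-0.037), Tagln3 (-0.81) and Zeb2 (-0.58). It did so with the mean of log2(TPM + 1) for Atp5g3 (-0.16), Dpf2 (-0.094), Rbfox2 (-0.042), Slc2a3 (-0.16) and Srrm4 (-0.11), for Bub1 (-0.40) with at least 1000 genes per cell, and for Fbxo15 with at least 4000 (-0.57) or 3000 to 6000 genes (-0.087). With all 96 wells, 5 genes less than 2-fold apart as reported moved to the other direction by at least 2-fold. They were Pou5f1 (-2.22), Vim (-1.76), Stmn1 (-1.56), Crabp2 (1.13) and Mga (1.70). Others, such as B2m (-0.59), changed sign but stayed under 2-fold. The cause was not tested. Shares at 12 h were 30.2% for Lhx3 and 20.8% for Isl1 over all 96 wells, and 30.8%, 7.69% and 0% for Lhx3, Isl1 and Neurog2 among the 1000 highest genes of a cell, where Lhx3 and Isl1 were at 0% at 0 h. At 10 TPM or more, Lhx3 was also at 0% at 0 h. Depth limits shares of low genes, and 1 sample per time leaves no measure of the spread between cultures.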

Other observations

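The lists below were put together after the values above had been seen, so their counts describe that choice. Of 12 described FGF and ERK pathway genes (22 in the list), 5 were at least 2-fold lower at 12 h and none higher, with a median log2 ratio of -0.78. Besides Fgf4, Dusp6 and Etv5 these were the ERK inhibitors Spred2, at 2.25 TPM in 12 h cells and 23.5 TPM in 0 h cells (log2 ratio -2.91), and Spred1 (-1.07). Spry2, another ERK inhibitor, averaged 727 TPM at 12 h and 870 TPM at 0 h, a log2 ratio of -0.26, and was above 0 in every cell of both groups. The median of the 6 of these genes described at 18 h against 6 h was 0.61.

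All 4 described cholinergic genes (11 in the list) were at least 2-fold higher at 12 h. Besides Slc18a3 and Slc10a4 these were 2 nicotinic receptor subunits that neighbour each other in the genome. Chrna3 averaged 19.5 TPM at 12 h with 14 cells above 0, against 0.360 TPM at 0 h with 5 cells (log2 ratio 3.91), and its log2 ratio was -0.73 with all 96 wells. Chrnb4 averaged 31.4 TPM at 12 h with 22 cells above 0, against 2.46 TPM at 0 h with 23 cells (log2 ratio 3.23), a higher mean from a smaller share of cells. Fst (follistatin), an activin antagonist from the extraembryonic endoderm list, averaged 6.75 TPM at 12 h with 4 cells above 0, against 97.1 TPM at 0 h with 22 cells (log2 ratio -3.66), and was named after its values were seen.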
